A study of Mus musculus with 9 samples.

Results

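Skeletal muscle transcripts were found at low level in part of a set of mouse liver RNA-seq libraries, and 40 named genes of the muscle fibre were followed through every library. The genes were chosen from earlier results of these same data, as genes with reads in 1 gefitinib library and in all libraries of the combined treatment. Their levels are therefore a description, and the model calls given for them near the end use the values that chose them and support nothing by themselves. Of the 40 genes, 38 had a row in the deposited table of 27945 genes and 36 passed the filter on low counts. Myh7 and Myl3 did not pass it, and Tnni1 and Myl2 were not analysed here.

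The series compared livers of mice given saline, gefitinib (an inhibitor of the epidermal growth factor receptor kinase), or glycyrrhizic acid (a licorice saponin) together with gefitinib, here called the combined group. Each group had 3 libraries, all at 16 days, and the question named by the series is how glycyrrhizic acid relieves gefitinib toxicity in liver. No dose, strain, sex or age was given in the labels. Nor do they state whether each library came from its own animal, so any spread within a group may be technical.

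Contraction in a striated muscle fibre comes from myosin filaments pulling on actin filaments, with troponin and tropomyosin holding the calcium switch on the actin filament. Many of these proteins exist as fast and slow isoforms made by different genes. Myh4, Myh1 and Myh2 encode the fast myosin heavy chains of type IIB, IIX and IIA fibres, and Myh7 encodes the slow chain of type I fibres and of the heart. In adult mice, type IIB fibres dominate the fast limb and trunk muscles, while type I and IIA fibres are common in slow muscles such as the soleus. Healthy liver has no striated muscle fibres.

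Total counts were 56440871 to 60665156 per library. Levels within a gene are given as deposited counts or as CPM, counts scaled to the library total and its TMM factor, and levels between genes as the authors' FPKM, which also divides by gene length. Small counts in the table clustered at 4, 8 and 12, so a count of 4 may stand for 1 sequenced fragment, and single-digit counts are read here as traces. Gefitinib 1 stood apart from gefitinib 2 and 3 in these genes, and results of comparisons with the gefitinib group are given with and without it. The 7 hepatocyte marker genes summed to 66200 to 90700 CPM in all 9 libraries, so the labelled tissue was present in each. The labels name no batch.

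The 3 fast myosin heavy chain genes lie side by side on chromosome 11 and are alike in sequence, so the following stretch of coding sequence is shown to make clear what separates their reads. Over the aligned coding sequence Myh4 shared 90.1% of bases with Myh1 and 88.2% with Myh2, and Myh1 shared 91.0% with Myh2. The window of 60 bases below is one where they differ most, with capitals at the 25 positions that are not the same in all 3 genes. It spans coding positions 3842 to 3901 of Myh4 and 3851 to 3910 of Myh1 and Myh2, counted from the start codon (GENCODE M21 transcripts on GRCm38).
Myh4: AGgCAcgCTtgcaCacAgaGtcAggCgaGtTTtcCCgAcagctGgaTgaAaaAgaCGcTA
Myh1: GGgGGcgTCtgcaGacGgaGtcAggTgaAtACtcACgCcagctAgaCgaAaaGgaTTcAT
Myh2: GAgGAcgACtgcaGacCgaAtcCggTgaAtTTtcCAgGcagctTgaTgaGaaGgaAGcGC
The closest pair in this window differed at 18 positions. Elsewhere the genes were harder to tell apart. Of all 50-base windows of the coding sequence, 19.6% of those of Myh4, 27.9% of Myh1 and 28.1% of Myh2 were also present unchanged in another gene. How the authors assigned such reads is not given in the sources used here, and the split between the 3 genes is uncertain to that extent.

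The promoters of Acta1 and Myh4 are shown because these are among the strongest muscle signals of the set. Both are RefSeq sequences on GRCm38.p6, from 250 bases before to 50 bases after the annotated start, and both are printed in the direction of transcription. Capitals mark the E-box CANNTG (bound by myogenic factors such as MyoD), TATAAA, the CArG box (bound by serum response factor) and the MEF2 site, searched on both strands. Acta1 lies at chr8:123894726-123895025 on the minus strand and Myh4 at chr11:67237562-67237861 on the plus strand.
Acta1: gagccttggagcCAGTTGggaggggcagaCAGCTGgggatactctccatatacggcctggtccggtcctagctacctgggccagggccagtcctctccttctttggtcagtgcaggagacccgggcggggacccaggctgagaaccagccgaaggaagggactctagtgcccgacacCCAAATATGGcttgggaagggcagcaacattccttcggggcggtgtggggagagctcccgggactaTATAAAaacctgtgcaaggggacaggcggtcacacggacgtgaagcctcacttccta
Myh4: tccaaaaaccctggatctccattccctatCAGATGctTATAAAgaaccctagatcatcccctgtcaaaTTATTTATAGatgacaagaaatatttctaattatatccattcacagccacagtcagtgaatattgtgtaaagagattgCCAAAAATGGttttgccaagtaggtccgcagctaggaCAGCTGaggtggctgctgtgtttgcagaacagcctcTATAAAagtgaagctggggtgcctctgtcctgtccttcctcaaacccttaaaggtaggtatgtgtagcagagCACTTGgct
The Acta1 promoter held 2 E-boxes, 1 TATAAA and 1 CArG box. The Myh4 promoter held 3 E-boxes, 3 TATAAA matches, 1 CArG box and 1 MEF2 site, and one of its TATAAA matches, on the other strand, overlaps the MEF2 site. The promoter of Ckm, searched in the same way and not printed, held 1 E-box and 0 TATAAA, CArG box or MEF2 matches. Promoters were available for 30 members and for 27025 genes in all. The E-box CANNTG was present in 86.7% of the members' promoters and 75.0% of all promoters, and its form CAGCTG, which every count of CANNTG includes, in 50% and 18.3%. TATAAA was present in 23.3% against 15.7%. The CArG box was present in 13.3% against 1.81% (Acta1, Ldb3, Myh4 and Myl3), and the MEF2 site in 20.0% against 3.7% (Myh1, Myh4, Pgam2, Pvalb, Ttn and Xirp2). These are matches of letters, not sites shown to be in use.

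Most members were present together in 4 libraries, gefitinib 1 and combined 1, 2 and 3, and lower in the other 5, where 10 of the 38 had 0 counts throughout. For 33 of the 38 genes the lowest CPM of these 4 libraries lay above the highest CPM of the other 5, a pattern that 2.52% of all genes with at least 10 counts showed. Nothing is read from this contrast, since the members were chosen for it. Of the 33 genes, 9 were parted by less than 10-fold. The 5 genes without the pattern were Myh7, Tnnt1, Myl3, Neb and Eno3. The member nearest to the boundary on the inside was Tnnc1, with a lowest level of 0.733 CPM against a highest of 0.7 CPM elsewhere. Nearest on the outside was Eno3, with 10.5 against 12 CPM. In bulk RNA, fewer cells of a type and less RNA per cell cannot be told apart.

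Together the 38 genes summed to 337.0 CPM in gefitinib 1 and to 292.0, 250 and 271.0 CPM in combined 1 to 3. The sums were 54.8, 37.0 and 37.9 CPM in saline 1 to 3 and 33.2 and 25.6 CPM in gefitinib 2 and 3, and most of this came from Neb and Eno3. Without those 2 genes the 36 others summed to between 4.88 and 8.4 CPM in these 5 libraries and to between 217.0 and 303.0 CPM in the 4 muscle-containing ones. That name stands for the presence of muscle transcripts only, and their source was not tested. Of all counts in the library, the 38 genes took 0.0319% in gefitinib 1 (95% exact binomial interval 0.031 to 0.0329%) and 0.0334%, 0.027% and 0.0284% in combined 1 to 3. In each of the 4 libraries the muscle signal was thus a trace beside that of the hepatocyte genes. The intervals here and below treat 4 counts as 1 fragment and cover counting error only.

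**Figure D1:**
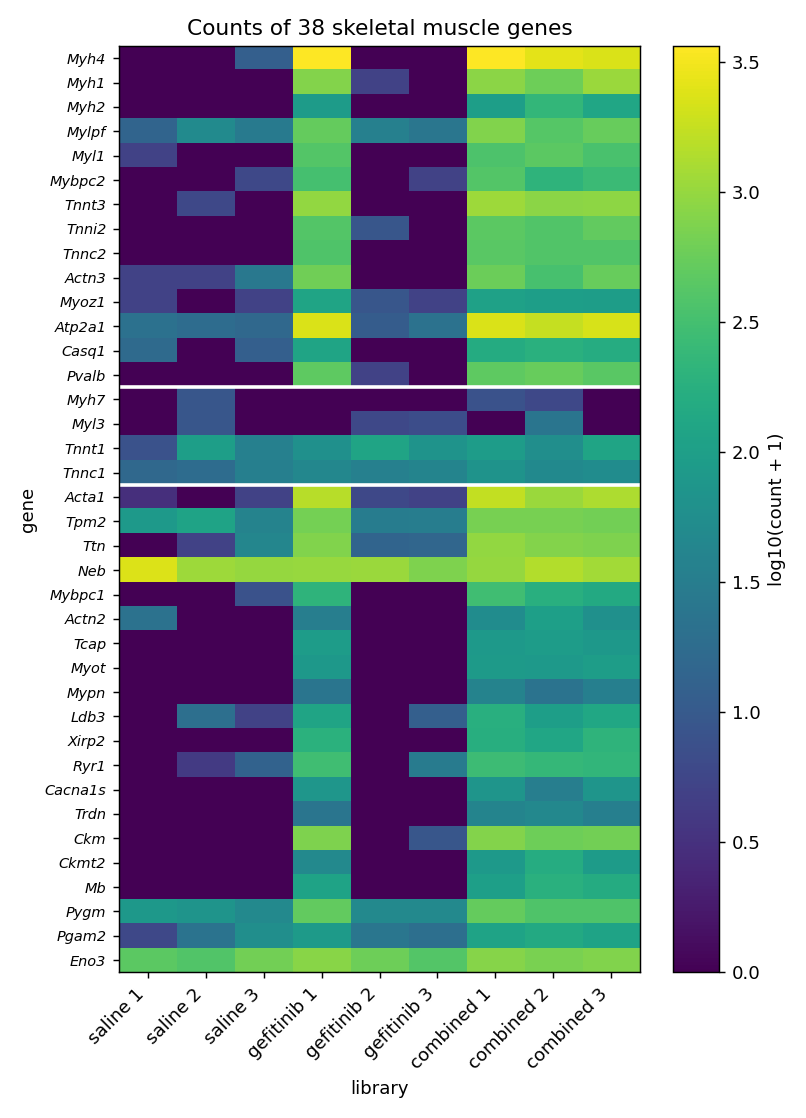
Deposited counts of the 38 skeletal muscle genes (rows, in italics) in the 9 liver libraries (columns), coloured by log10(count + 1). White lines part the 14 fast isoforms (top), the 4 slow isoforms (middle) and the 20 other genes (bottom). Gefitinib 1 and combined 1 to 3 are bright in 33 rows, while Neb and Eno3 are bright in all 9 libraries and Myh7 and Myl3 are dark in nearly all.

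The myosin heavy chains, the motors of the thick filament, gave the clearest fast profile. Myh4, the type IIB chain (chr11:67238029-67260446, plus strand, GRCm38 as in the deposited table), had 0, 0 and 11 counts in saline 1 to 3, 3585, 0 and 0 in gefitinib 1 to 3, and 3644, 2628 and 2296 in combined 1 to 3. Myh1, the type IIX chain (chr11:67200052-67224575, plus strand), had 0 counts in each saline library, 796, 4 and 0 in gefitinib 1 to 3, and 869, 602 and 1058 in combined 1 to 3. Both were thus at 602 counts or more in the same 4 libraries and at 11 or fewer in the 5 others. Myh2, the type IIA chain (chr11:67171027-67197517, plus strand), had 90 counts in gefitinib 1 and 97, 230 and 126 in combined 1 to 3, and 0 in the other 5. Myh7, the slow chain (chr14:54970684-54994626, minus strand), had 8 counts in saline 2, 7 in combined 1, 5 in combined 2 and 0 in the remaining 6 libraries. Slow myosin was therefore no higher in the 4 muscle-containing libraries than elsewhere.

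Scaled by length, Myh4 made up 81.3% of the FPKM of these 4 myosin genes in gefitinib 1, and 80.1%, 77.4% and 67.5% in combined 1 to 3. Myh1 made up 17%, 18.0%, 16.8% and 29.4% in the same order, and Myh2 made up 1.7%, 1.78%, 5.71% and 3.11%. Type IIB myosin was the main form in every muscle-containing library, followed by type IIX and then type IIA. Myh7 had 0 of 4471 myosin counts in gefitinib 1, which allows a share of up to 0.268% by the floor of 12 counts, and 0 of 3480 in combined 3, which allows up to 0.345%. The upper ends of the exact intervals were 0.329% and 0.423%. It reached 0.102% of myosin FPKM in both combined 1 and combined 2.

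The 4 libraries did not hold the same mix. In counts, Myh1 made up 30.4% of the 4 myosins in combined 3 (interval 27.3 to 33.5%), against 17.8% in gefitinib 1 (15.6 to 20.2%), 18.8% in combined 1 (16.6 to 21.2%) and 17.4% in combined 2 (14.9 to 20.0%). The interval of combined 3 did not touch the others. Myh2 made up 6.64% in combined 2 (5.12 to 8.57%), against 2.01% in gefitinib 1 (1.24 to 2.96%), 2.1% in combined 1 (1.34 to 3.08%) and 3.62% in combined 3 (2.53 to 5.15%). Here combined 2 lay above gefitinib 1 and combined 1, and its interval met that of combined 3 at the edge. Since the intervals hold counting error alone and each mix comes from 1 library, these are differences between libraries and not between treatments.

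**Figure D2:**
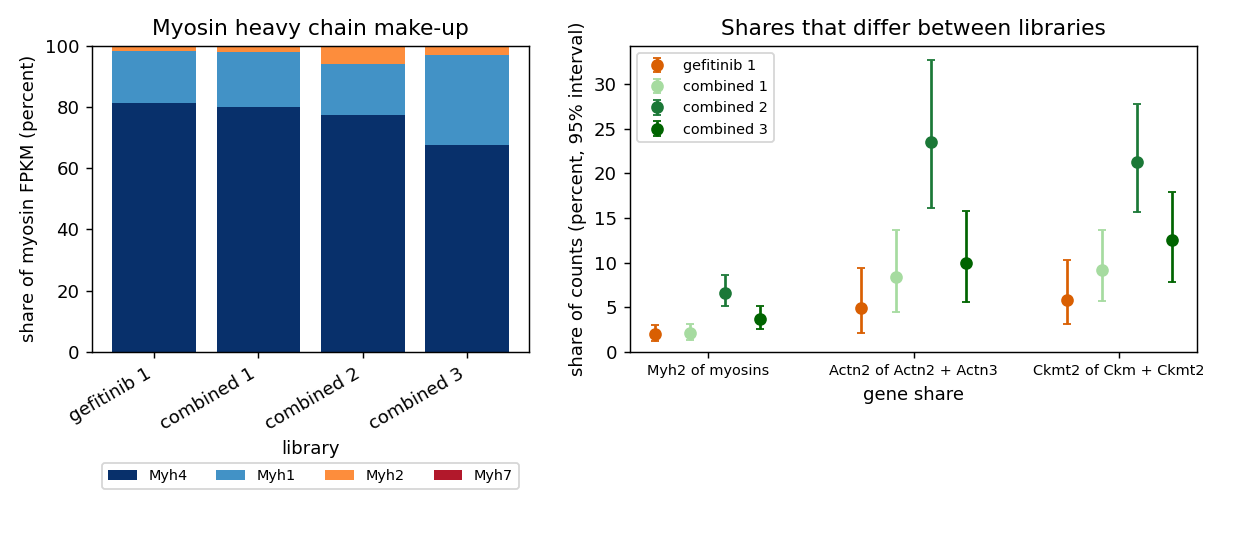
Left, the share of each myosin heavy chain gene in the summed FPKM of Myh4, Myh1, Myh2 and Myh7 (percent) in the 4 muscle-containing libraries; Myh4 runs from 67.5% to 81.3% and Myh7 is too small to see. Right, the share of counts (percent) of Myh2 among the 4 myosins, Actn2 in Actn2 plus Actn3, and Ckmt2 in Ckm plus Ckmt2, with 95% exact binomial intervals for counting error; combined 2 has the highest share in all 3 sets.

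The myosin light chains and myosin-binding proteins also followed the fast form. Mylpf, the fast regulatory light chain, had 13, 50 and 27 counts in saline, 525, 35 and 24 in gefitinib, and 774, 416 and 544 in the combined libraries. Myl1, the fast essential light chain, had 402 counts in gefitinib 1 and 364, 456 and 342 in combined 1 to 3, and 4 counts in saline 1 with 0 in the other 4. Of the 50-base windows of Myl1, 47.0% were also found in the pseudogene Mylf-ps, so its counts may be shared. Myl3, the slow and ventricular light chain, had 23 counts in combined 2, at most 8 in any other library, and 0 in the other 3 muscle-containing libraries. Mybpc2, fast myosin-binding protein C, ranged from 3.16 to 5.99 CPM in the 4 libraries and was at most 0.0933 CPM elsewhere. Its slow-type relative Mybpc1, which fast fibres also express, ranged from 2.31 to 4.34 CPM and was at most 0.131 CPM elsewhere. Mybpc1 held 30.4% to 39.9% of the FPKM of the pair.

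Fast troponins, the calcium switch of the thin filament, were present in the 4 libraries at similar levels. Tnnt3, the tropomyosin-binding subunit (chr7:142498836-142516008), had 5 counts in saline 2 and 0 in saline 1 and 3, 968, 0 and 0 in gefitinib 1 to 3, and 1083, 863 and 894 in combined 1 to 3. Tnni2, the inhibitory subunit (chr7:142441808-142444410), had 411 counts in gefitinib 1, 461, 397 and 514 in combined 1 to 3, 8 in gefitinib 2 and 0 in the other 4. Tnnc2, the calcium-binding subunit (chr2:164777161-164779967), had 386 counts in gefitinib 1, 444, 393 and 392 in combined 1 to 3, and 0 in all 5 others. Each of these 3 genes was cleanly parted between the 2 sets of libraries. Tnnc2 shares exon sequence on the opposite strand with Ube2c, which had 10 to 675 counts per library, and whether counting used strand is not given in the sources used here.

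Slow troponins had no clean split. Tnnt1, the slow tropomyosin-binding subunit, had 7, 98 and 35 counts in saline, 60, 120 and 66 in gefitinib, and 92, 56 and 118 in the combined libraries. Tnnc1, the calcium-binding subunit of slow muscle and heart, had 15, 17 and 34 counts in saline, 44, 35 and 40 in gefitinib, and 67, 48 and 53 in the combined libraries. The 3 groups overlapped for Tnnt1, and Tnnc1 was parted only by 0.733 against 0.7 CPM. For Tnnc1 the combined libraries were the highest in counts and saline the lowest, and gefitinib 1 was close to gefitinib 2 and 3. Tnnt1 made up 4.13% to 8.56% of the FPKM of the Tnnt1 and Tnnt3 pair in the muscle-containing libraries, and Tnnc1 7.91% to 10.3% of the Tnnc1 and Tnnc2 pair. Because both genes had like counts in libraries without fast troponin, these shares cannot be read as shares of slow fibres.

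Taking all isoform-specific members together, the 14 fast genes summed to 200 CPM in gefitinib 1 and 172.0, 139.0 and 156.0 CPM in combined 1 to 3, and to between 0.927 and 1.85 CPM in the other 5. The 4 slow genes (Myh7, Tnnt1, Tnnc1 and Myl3) summed to 1.87 CPM in gefitinib 1 and 2.43, 2.02 and 2.69 CPM in combined 1 to 3, and to between 0.393 and 2.66 CPM in the other 5. The fast sum was separated between the sets of libraries and the slow sum was not.

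**Figure D3:**
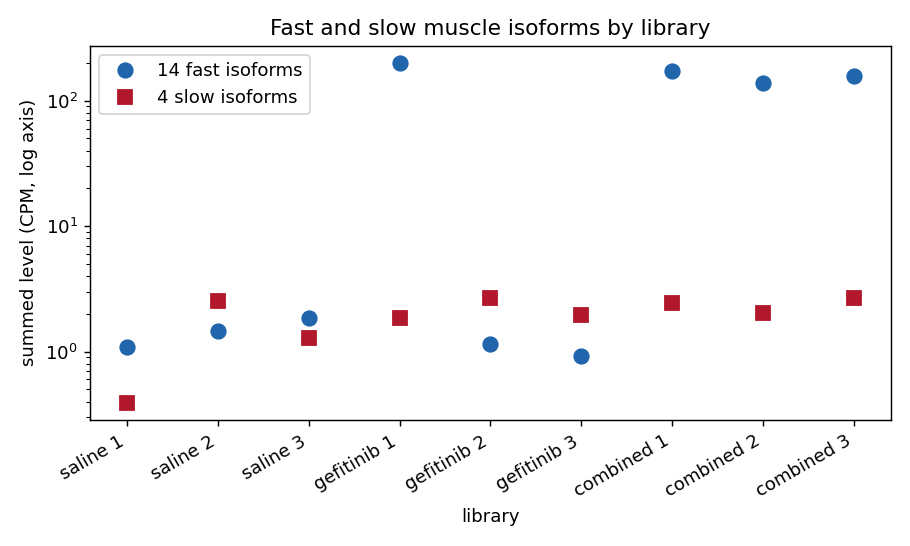
Summed level (CPM, log axis) of the 14 fast isoform genes (blue circles) and the 4 slow isoform genes (red squares) in each of the 9 libraries. The fast sum is 139.0 to 200 CPM in gefitinib 1 and combined 1 to 3 and at most 1.85 CPM in the rest, while the slow sum stays between 0.393 and 2.69 CPM throughout.

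Among thin-filament genes, Acta1, skeletal alpha-actin (chr8:123891769-123894751, minus strand), had 2, 0 and 4 counts in saline, 1533, 5 and 4 in gefitinib, and 1699, 1055 and 1343 in the combined libraries. It had the highest FPKM of all members in the muscle-containing libraries, at 14.8 in gefitinib 1 and 16.3, 10.1 and 12.9 in combined 1 to 3. Only 2.87% of its 50-base coding windows also occur in other genes, cytoplasmic actin Actb among them. Tpm2, beta-tropomyosin, had 84, 114 and 38 counts in saline, 660, 30 and 31 in gefitinib, and 672, 667 and 644 in the combined libraries. It was thus present in every library, and higher in the 4. Neb, the nebulin ruler of the thin filament, had 2337, 1093 and 1007 counts in saline, 1020, 1053 and 735 in gefitinib, and 984, 1436 and 1182 in the combined libraries. Its groups overlapped, and saline 1 was the highest. An antisense gene, Gm13522, overlaps exons of Neb and had 18 to 128 counts per library.

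The Z-disc and titin system, which anchors and aligns the filaments, was represented by 9 members. Ttn, titin, had 0, 4 and 42 counts in saline, 776, 13 and 14 in gefitinib, and 954, 788 and 749 in the combined libraries. Actn3, the alpha-actinin of fast fibres, had 4, 4 and 26 counts in saline, 620, 0 and 0 in gefitinib, and 579, 335 and 547 in the combined libraries. Actn2, the alpha-actinin of all striated fibres, had 21 counts in saline 1, 32 in gefitinib 1, 53, 103 and 61 in combined 1 to 3, and 0 in the other 4. Actn2 was thus well below Actn3 in each muscle-containing library. Its share of the counts of the pair was 23.5% in combined 2 (interval 16.1 to 32.7%), against 4.91% in gefitinib 1 (2.14 to 9.44%), 8.39% in combined 1 (4.45 to 13.7%) and 10% in combined 3 (5.63 to 15.8%). Tcap (telethonin), Myot (myotilin), Mypn (myopalladin), Xirp2, Ldb3 and Myoz1 ranged from 0.336 CPM for Mypn to 3.39 CPM for Xirp2 in the 4 libraries. Tcap, Myot, Mypn and Xirp2 had 0 counts in all 5 others, and Ldb3 and Myoz1 stayed at or below 0.365 CPM there.

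Genes of calcium release and uptake were present in the same libraries. Atp2a1, the fast-fibre calcium pump SERCA1 (chr7:126445858-126463108, minus strand), had 20, 17 and 15 counts in saline, 2300, 10 and 21 in gefitinib, and 2277, 1774 and 2229 in the combined libraries. It overlaps exons of Rabep2 on the opposite strand, which had 985 to 1238 counts in all 9 libraries. Pvalb, parvalbumin, a calcium buffer of fast fibres, had 481 counts in gefitinib 1, 480, 533 and 441 in combined 1 to 3, 4 in gefitinib 2 and 0 in the other 4. Both therefore had the profile of the fast myosins. Casq1 (calsequestrin of the fast sarcoplasmic reticulum), Ryr1 (the calcium release channel), Cacna1s (its voltage sensor) and Trdn (triadin) had between 0.414 and 5.31 CPM in the 4 libraries. Cacna1s and Trdn were at 0 in the other 5, and Ryr1 and Casq1 reached at most 0.507 CPM there.

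Energy genes other than Eno3 fell into 2 patterns, absent or nearly so, or present at a low level, in the other 5 libraries. Eno3 overlapped between the 2 sets of libraries. Ckm, muscle creatine kinase (chr7:19404776-19422841, plus strand), had 0 counts in all saline libraries, 751, 0 and 8 in gefitinib, and 801, 592 and 631 in the combined libraries. Ckmt2, the mitochondrial creatine kinase of muscle, had 46 counts in gefitinib 1, 81, 160 and 90 in combined 1 to 3 and 0 elsewhere. Mb, myoglobin, the oxygen store of oxidative fibres, had 116 counts in gefitinib 1, 100, 184 and 152 in combined 1 to 3 and 0 elsewhere. These 3 genes were at or near 0 outside the muscle-containing libraries.
Pygm, muscle glycogen phosphorylase, had 78, 68 and 46 counts in saline, 500, 46 and 46 in gefitinib, and 527, 379 and 379 in the combined libraries. Pgam2, the muscle form of phosphoglycerate mutase, had 5, 22 and 57 counts in saline, 85, 24 and 19 in gefitinib, and 117, 146 and 115 in the combined libraries. Both had a low level in every library and a higher one in the 4. Eno3, the muscle form of enolase, had 458, 396 and 645 counts in saline, 849, 595 and 404 in gefitinib, and 817, 689 and 777 in the combined libraries. In CPM it spanned 7.07 to 15.3 over the 9 libraries, and its 2 sets of libraries overlapped, with 12 CPM in saline 3 above the 10.5 CPM of combined 2.

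Gefitinib 1 resembled the combined libraries in how the members ranked. Across the 33 separated genes, the Pearson correlation of log2 FPKM between pairs of these 4 libraries was 0.957 to 0.992, highest for gefitinib 1 with combined 1 and lowest for gefitinib 1 with combined 2. The points are genes of 1 tissue, so these values describe the profiles only. In level, gefitinib 1 lay inside the range of the combined libraries for 12 of the 33 genes, above it for 16 and below it for 5.

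Combined 2 had the most distinct profile of the 4. As a share of the summed level of the 33 genes it was above the 3 other libraries for 14 genes and below them for 9. It lay beyond 1.5-fold of their median for 8 genes, against 5 genes for gefitinib 1, 2 for combined 1 and 1 for combined 3. The ratio to that median was 3.02 for Myh2, 2.52 for Ckmt2, 2.48 for Actn2, 1.88 for Mb, 1.59 for Pgam2 and 1.54 for Casq1, and it was 0.655 for Actn3 and 0.512 for Cacna1s. Of the 6 higher genes, Myh2, Ckmt2, Actn2 and Mb are known as genes of oxidative or of all fibres, Casq1 and Pgam2 as genes of fast or glycolytic fibres. Ckmt2 held 21.3% of the Ckm and Ckmt2 counts in combined 2 (interval 15.7 to 27.8%), against 5.77% in gefitinib 1 (3.15 to 10.3%), 9.18% in combined 1 (5.64 to 13.7%) and 12.5% in combined 3 (7.82 to 17.9%). A higher share of type IIA myosin thus came with higher shares of these genes in that library, while its slow myosin stayed at 5 counts. The slow light chain Myl3, outside the 33 genes, had 23 counts in combined 2 and 0 in gefitinib 1, combined 1 and combined 3. Its share of the Myl1 and Myl3 counts in combined 2 was 4.8% (interval 1.86 to 10.6%). The upper ends in the others were 3.62% to 4.2%, so the intervals overlapped.

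A search over all genes for the same profile asked for at least 10 counts in each of the 4 libraries and a lowest CPM there at least 10-fold above the highest CPM of the other 5, or above the CPM of 3 counts where that was higher. It found 25 genes, of which 21 were members. Since the members were chosen for this profile, their number among these genes follows from that choice, and only the other genes add to it. The 4 others included Myom2 (an M-band protein), Mylk4 (a myosin kinase family member) and Ampd1 (muscle AMP deaminase). All 4 were on the lists of muscle genes used here. Myom2 had 147 counts in gefitinib 1 and 187, 105 and 106 in combined 1 to 3, with at most 4 elsewhere. Mylk4 had 117 counts in gefitinib 1 and 99, 188 and 95 in combined 1 to 3, with 0 elsewhere. With 12 counts as the minimum in place of 3, a choice made after seeing the data, 14 genes remained, all of them members. At 5-fold, also chosen after seeing the data, the search found 37 genes, 27 of them members, and 3 of the 10 others (Sh3bgr, Tmem182 and Gm15726) were on no muscle list.

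**Figure D4:**
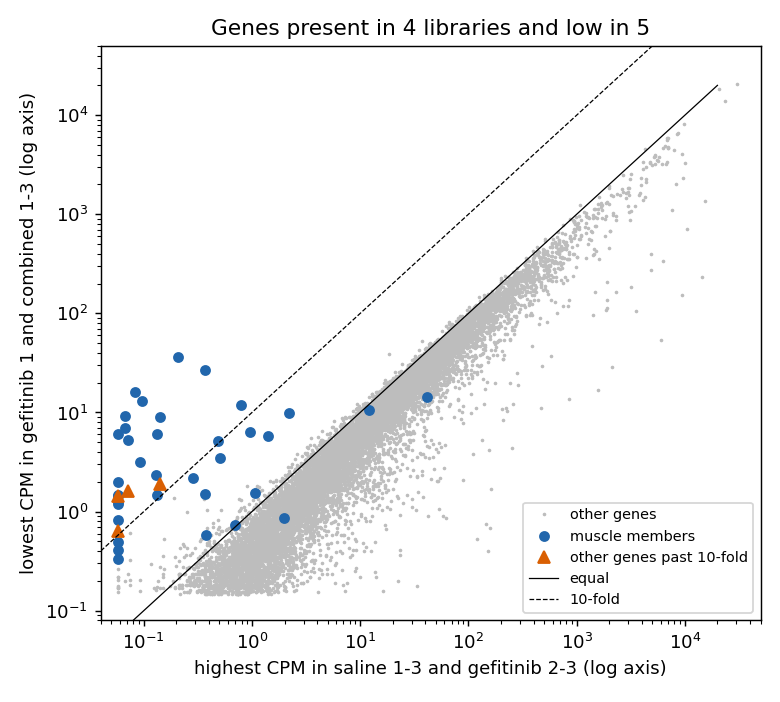
Each point is a gene with at least 10 counts in each of gefitinib 1 and combined 1 to 3; the x axis is the highest CPM of the other 5 libraries, with the CPM of 3 counts as a minimum, and the y axis the lowest CPM of these 4 (both log axes). Members are blue circles, the 4 non-members past 10-fold (dashed line) are orange triangles and the solid line marks equal levels; beyond the dashed line lie 25 genes, 21 of them members, which were chosen for this profile.

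Other muscle genes, taken from fixed lists rather than by how they moved, behaved unevenly. Of 34 further genes of the sarcomere and Z-disc, 11 had their lowest level in the 4 libraries above their highest in the other 5, as had 6 of 20 further calcium and excitation genes, 5 of 16 further energy genes and 0 of 8 membrane genes, where 2.52% of all genes with at least 10 counts did. The lists were drawn up with the members' pattern known. The 11 included Myom2, Mylk4, Nrap, Mylk2, Flnc, Klhl41, Smpx, Myoz3, Trim63 and Tpm1. The calcium genes were Srl, Hrc, Jph2, Scn4a, Sypl2 and Cacng1, and the energy genes Phkg1, Ampd1, Cox6a2, Art1 and Ppp1r3a. Cacng1, a calcium channel subunit of skeletal muscle, had 10 counts in gefitinib 1 and 21, 10 and 16 in combined 1 to 3, with 0 elsewhere. Tpm1, alpha-tropomyosin, which many cell types express, had 24.2, 25.1 and 21.9 CPM in saline, 52.7, 34.3 and 37.3 in gefitinib, and 91.1, 77.7 and 75.2 in the combined libraries. It was above saline in gefitinib 2 and 3 as well.

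In edgeR's quasi-likelihood test, 28 of the 34 sarcomere and Z-disc genes were tested. In the combined group against saline 4 rose and 2 fell, where 9.37% of all tested genes rose and 8.32% fell. Tpm1 rose with a log2 fold change of 1.78 ± 0.16 (SE) and an adjusted p of 0.000183 in edgeR, and it stayed called under all 17 alternatives. The other rises included Myom2 and Mylk2, which were called in 9 of 16 and 9 of 17 alternatives, and each lost its call when any 1 saline or combined library was left out. Csrp3, a muscle LIM protein, fell by 0.88 ± 0.20 on the log2 scale (edgeR adjusted p = 0.0137, called in all 17 alternatives), and Unc45b, a myosin chaperone, fell by 1.39 ± 0.38 (edgeR adjusted p = 0.0317, called in 8 of 17). Neither of these had the members' pattern. Tpm1 also rose with gefitinib alone, by 0.80 ± 0.16 (edgeR adjusted p = 0.0497, called in 3 of 17 alternatives with a range from 0.000492 to 0.15), and from gefitinib to combined, by 0.97 ± 0.16 (edgeR adjusted p = 0.006). Without gefitinib 1 these 2 changes were 0.60 ± 0.12 (edgeR adjusted p = 0.0919, not called) and 1.18 ± 0.13 (edgeR adjusted p = 0.00362). Csrp3 fell from gefitinib to combined too, by 0.90 ± 0.20 (edgeR adjusted p = 0.0219, called in 14 of 17), but without gefitinib 1 the fall was not called (log2 fold change -0.81 ± 0.22, edgeR adjusted p = 0.0825). Of the 16 tested calcium genes edgeR called 0 in each comparison. In gefitinib against saline, combined against gefitinib and combined against saline, 1, 1 and 3 of them had an unadjusted edgeR p under 0.05. Of all genes, 14.1%, 24.3% and 31.8% had. DESeq2 tested 19 calcium genes and called 0, 1 and 1 of them. Without gefitinib 1 edgeR again called 0 of the 16 in both comparisons with the gefitinib group. In gefitinib against saline and combined against gefitinib, 2 and 6 of them had an unadjusted p under 0.05 there. Of all 18859 genes of that fit, 2282 and 3634 had. Of the 14 tested energy genes, Hk2 (hexokinase of muscle and other insulin-sensitive tissues) rose in the combined group against saline, by 2.22 ± 0.52 (edgeR adjusted p = 0.0164, not called without combined 1, at 0.0542), and Adssl1 (a purine cycle enzyme) fell from gefitinib to combined, by 0.57 ± 0.16 (edgeR adjusted p = 0.0477, called in 5 of 17). Without gefitinib 1, Adssl1 was not called (log2 fold change -0.54 ± 0.18, edgeR adjusted p = 0.141). In that fit 4 sarcomere and Z-disc genes and 1 energy gene rose from gefitinib to combined, where 2.49% of all genes did, and 0 fell. With all 9 libraries, DESeq2 tested 30 sarcomere and Z-disc genes and 16 energy genes. In combined against saline it called 6 and 4 of these higher, and 2 and 0 lower. In gefitinib against saline it called 3 and 0 higher and 0 lower. From gefitinib to combined it called 1 and 1 higher and 2 and 1 lower. Of 27832 genes it called 2306 higher and 1909 lower, 452 and 415, and 1481 and 1276 in the same order.

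Taken as summed lists, markers of other cell types that could accompany muscle did not separate the 4 libraries from the other 5. For several lists this says little, since genes present in every library made up most of the sum. The 8 cardiac genes with a row summed to 0.739 to 2.27 CPM over the 9 libraries. Myh6, the cardiac myosin, had at most 6 counts, and Nppa, the atrial natriuretic peptide, had 9 counts in saline 1 and 0 elsewhere. Heart markers were thus at trace level with or without the muscle transcripts. The 8 muscle stem cell and myogenic factor genes summed to 0.927 to 2.59 CPM, and none of them was separated. Myf6, the myogenic factor of mature fibres, had 14 counts in gefitinib 1, 15 and 7 in combined 1 and 2, and 0 in the other 6 libraries. Of the 5 developmental muscle genes, Actc1 (cardiac and embryonic actin) was separated, with 21 counts in gefitinib 1, 58, 11 and 22 in combined 1 to 3, and at most 3 elsewhere. Myh8, the perinatal myosin, had 6 counts in gefitinib 1 and 0 in the other 8 libraries.
Summed levels of smooth muscle (85.8 to 138.0 CPM), adipocyte (14 to 41.4), tendon and fascia (2.44 to 7.94), nerve and Schwann cell (8.52 to 14) and mesothelium genes (2.45 to 12.9) overlapped between the 4 libraries and the other 5, as did those of pancreatic acinar (12.1 to 37.5), gastrointestinal (67.9 to 166.0) and epidermis genes (1.69 to 4.2). Most of the smooth muscle sum was Mylk (66.5 to 127.0 CPM), and most of the pancreatic sum Cela1 (10.8 to 36.0 CPM). Adrb3 and Fabp4 made up most of the adipocyte sum, and Lgals4 and Fabp2 most of the gastrointestinal one. A small amount of such a tissue could be missed in these sums. Within the epidermis list Krt5, a basal keratin, had 28 counts in gefitinib 1 and 42, 5 and 8 in combined 1 to 3, and 0 elsewhere. Krt14 and Krt1 had 9 and 8 counts in gefitinib 1 and 0 elsewhere. The 5 red cell genes summed to 1980.0 CPM in gefitinib 1, the highest of the 9 libraries, against 346.0 to 1250.0 CPM in the others. The part of any of these in the muscle signal was not tested.

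Between the treatment groups, the members' calls in combined against gefitinib depended on gefitinib 1. Myh4 was at 0.0684 ± 0.118 CPM in saline, 21.5 ± 37.3 in gefitinib and 43.2 ± 9.05 in the combined group (SD, n = 3), so the spread within the gefitinib group exceeded its mean. Atp2a1 was at 0.321 ± 0.0391, 14 ± 23.8 and 31.8 ± 4.21 CPM in the same order. In gefitinib against saline, edgeR called 0 of the 36 tested members at an adjusted p under 0.05. It called 0.547% of all genes higher. Of the 36, 26 had an unadjusted edgeR p under 0.05, as had 14.1% of all genes. DESeq2 gave a p for 22 members only and called 4 of them higher, with 452 of 27832 genes called higher. In combined against gefitinib, edgeR called 0 members, where 4.96% of all genes were called higher. Of the members, 0 had an unadjusted edgeR p under 0.05, against 24.3% of all genes. DESeq2 called 0 of its 22 members, with 1481 of 27832 genes called higher. In combined against saline, 15 members rose, where 9.37% of all genes rose. They were 11 of the 14 fast isoforms (Myh4, Myh1, Myh2, Mylpf, Myl1, Mybpc2, Tnnt3, Tnni2, Atp2a1, Pvalb and Myoz1) and Acta1, Ckm, Ckmt2 and Ttn. The count fell to 0 when any 1 saline library, combined 1 or combined 3 was left out. It was 1 without combined 2 or with no filter on low counts. Calls over all genes fell in these fits too, from 1698 higher of 18113 tested. They were 1127 to 1308 of 18792 to 18907 genes in the fits with 0 members called. Without combined 2 they were 1273 of 18812, and with no filter 1311 of 27945. DESeq2 called 11 of its 22 members, with 2306 of 27832 genes called higher. In a fit of only those 6 libraries 30 members rose, where 9.11% of all genes did. Scaling by library size alone moved the median of all genes by 0.2 on the log2 scale in this comparison, gave 2980 higher and 805 lower genes in place of 1698 and 1507, and called 23 members. In combined against gefitinib it moved the median from 0.01 to 0.17 and gave 1513 higher and 380 lower genes in place of 899 and 745, with 0 members called.

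Leaving out gefitinib 1 changed the members' calls in combined against gefitinib from 0 to 25, all higher, where 2.49% of all genes were then called higher. In combined against saline it changed them from 15 to 29, where 8.53% of all genes were called higher. Leaving out gefitinib 2 or 3 instead gave 25 and 23, with 1618 of 18879 and 1554 of 18893 genes called higher. The larger count against saline was thus not particular to gefitinib 1. Atp2a1 then had a log2 fold change of 6.90 ± 0.33 (SE) against gefitinib, and 1.19 ± 1.32 with gefitinib 1 included. In gefitinib against saline, 15 of the 36 members changed from a fitted rise to a fitted fall without gefitinib 1, Atp2a1 from 5.43 ± 1.72 to -0.27 ± 0.33, and 0 were called by edgeR in either fit. Tnnt1, Tnnc1, Neb and Eno3 were not called in either fit. As the members were chosen from these libraries, the calls only describe which libraries differ, and an effect of treatment on these genes was not tested independently.

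The fitted changes of most members are sensitive to how values of 0 are handled. The median log2 fold change of the 36 tested members was 5.96 in gefitinib against saline, 1.30 in combined against gefitinib and 7.43 in combined against saline, beside medians of 0, 0.01 and -0.01 over all genes. For 14 of the 36, all saline libraries were at 0. With these set to their lower bound, against a floor of 12 counts per saline library, the medians against saline were 2.36 for gefitinib and 3.86 for combined. The 15 called members made up 0.883% of the 1698 genes called higher in combined against saline, and 10 of the 50 largest fitted rises there were members.

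**Figure D5:**
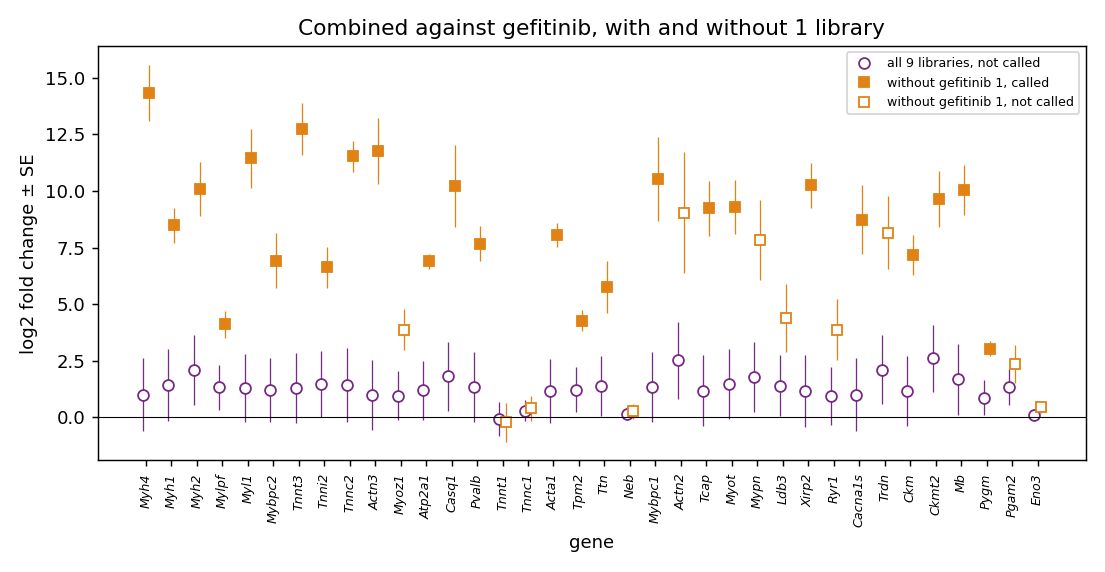
Fitted log2 fold change ± SE of the 36 tested members (x axis) in combined against gefitinib, with all 9 libraries (purple circles) and without gefitinib 1 (orange squares); filled symbols are called at an adjusted p under 0.05 in edgeR. None is called with gefitinib 1 and 25 are called without it; sizes for genes at 0 in gefitinib 2 and 3 depend on the fit's prior count and are not bounds.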

How the data were processed

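Per the file headers, the authors deposited 1 table with an unnormalised count and an FPKM value for every gene in every library, both made by them. Builds GRCm38 and mm10, names of one assembly, are given in the submitters' processing notes. How reads were aligned and counted, and whether strand was used, is not given in the sources used here. All 18 columns of per-library values were matched by name. Libraries of a group differed beyond sampling noise (chi-square per degree of freedom 74.8 to 155), and each was kept as 1 replicate.

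CPM used TMM factors of 0.9051 to 1.144 (edgeR 4.0.16, R 4.3.3). Tests were edgeR quasi-likelihood fits over all 9 libraries with 6 residual degrees of freedom, after filterByExpr, with Benjamini-Hochberg adjustment over 18113 genes and a threshold of 0.05. The test was checked on simulated counts, with planted changes shared by all libraries of a group. That check does not cover changes carried by gefitinib 1 alone, as in the members. Among protein-coding counts of 1 to 12, 46.3% were 4, 8 or 12, so exact (Clopper-Pearson) intervals used counts divided by 4, and floors used 3 such fragments, or 12 counts.

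The members and gene lists were chosen with earlier results of these data known. Values in every library are given for the myosin heavy chains, the troponins, Acta1, Ckm and each member with at least 1 CPM in a saline library, and further members were named after their values were seen. Alternatives were DESeq2 1.42.0, limma 3.58.1 on log2(FPKM + 1) and log2(FPKM + 0.1) of the deposited FPKM, other scalings, no filter, 6-library fits, a replicate block and each library left out. Gene overlaps and coding sequences came from GENCODE M21. Of the 38 members, 17 share exon sequence with another gene, all on the opposite strand. Figures used matplotlib 3.10.9, and intervals scipy 1.17.1, in Python 3.11.15. The result of 1 gene outside the members is not reported here.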

Additional observations from a re-analysis of the deposited data

How the results depend on the processing

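Member genes called in combined against saline numbered 15, and 15 with median-ratio scaling, 11 with DESeq2 (which gave a p for 22 members), 23 with scaling by library size alone, 30 in a fit of only the 6 libraries compared, 30 and 32 with limma on log2(FPKM + 1) and log2(FPKM + 0.1), and 1 with no filter. In the limma fits, in the same order, 3314 and 3266 of 18113 genes were called higher. Leaving out each library in turn gave a count of 0 to 29 members. It was 29, 25 and 23 without gefitinib 1, 2 or 3, 1 without combined 2, and 0 without combined 1 or 3 or any saline library. Over all genes, 1609, 1618 and 1554 were called higher without gefitinib 1, 2 or 3, and 1273 without combined 2. In the fits with 0 members called it was 1127 to 1308 genes, and with no filter 1311 of 27945. In combined against gefitinib the count was 0, and 3 and 2 with limma at the larger and smaller pseudocount. Of all 18113 genes, 1851 and 1664 were called higher in those limma fits. Leaving out each library gave 0 to 25, with 25 only without gefitinib 1. In gefitinib against saline it was 0, 4 with DESeq2, and 0 with each library left out. The causes were not tested. With the replicate number as a block, 0, 0 and 13 members were called in gefitinib against saline, combined against gefitinib and combined against saline, and 82, 1028 and 2496 of all genes in place of 206, 1644 and 3205. Libraries with the same number did not deviate together (correlations -0.0756 to 0.0716, and 2 of 9 libraries correlated best with their own number), so the numbers were not taken as pairs. Of the members' log2 fold changes under the alternatives, 1501 stayed within 1 SE and 264 did not, and 22 changed sign, none of them called, 15 of these in gefitinib against saline without gefitinib 1.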
